A study of Mus musculus with 4 samples.

Results

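Chemokines and their receptors were described in livers of Gdown1 knockout mice (KO) and of control mice (FF), measured on Affymetrix MoGene 2.0 ST arrays. Members were the genes whose symbol in the authors' deposited table follows the Ccl, Cxcl, Cx3c, Xcl1, Xcr1, Ccr or Cxcr naming pattern. The pattern found 54 entries, of which 53 carried 1 symbol and formed part of the 29432 genes tested. The last names Ccl19 together with a second gene and is given with the other probe sets of that kind near the end. The 34 ligands comprise 19 CC, 13 CXC and 2 CX3C or XC genes, and the 19 receptors comprise 11 CC, 6 CXC and 2 CX3C or XC genes.

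The 2 KO and 2 FF animals were untreated C57BL/6 mice aged 8 weeks on a standard diet, killed around midday. The label of the FF group is Control, and the authors' deposited table calls the sides Alb-cre and f/f. The albumin promoter drives Cre in hepatocytes, so the other cells of the liver may keep Gdown1. Group labels name no animals with Cre and an intact gene, so effects of Cre and of the deletion cannot be told apart. Gdown1 is the product of Polr2m and binds RNA polymerase II. Polr2m lay at 6.35 and 6.18 on the KO arrays, against 7.35 and 7.38 on the FF arrays, on the log2 scale of the deposited values. It fell by 1.10 ± 0.12 (limma SE), with an adjusted p of 0.0215. Each array held 41345 probe sets, with medians of 2.88 and 2.90 in KO and 2.92 and 2.90 in FF. Only 2 arrays per group limit the precision of every value, and an exact permutation test of 2 against 2 cannot go below p = 0.333.

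Chemokines are small secreted proteins, named for the spacing of their first cysteines, that guide migrating cells along a gradient. Their receptors are G protein-coupled and sit mainly on leukocytes, while hepatocytes, endothelium, stellate cells and macrophages of the liver make ligands. Homeostatic ligands such as CXCL12 keep cells in place, whereas inflammatory ligands such as CCL2 and CXCL10 are induced by cytokines and recruit monocytes, neutrophils or lymphocytes. Receptor signal in whole liver may therefore come largely from resident and infiltrating leukocytes, which was not tested here. In such bulk RNA, fewer cells of a type and less RNA per cell cannot be told apart.

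None of the 53 members passed the test, at a limma adjusted p under 0.05 over all genes. Of the 29432 genes 1.77% did, 0.996% higher and 0.778% lower in KO, a share too small for 0 of 53 to stand out. The smallest absolute log2 difference of any called gene was 0.72. At an unadjusted p under 0.05 there were 11 members, or 20.8%, close to the 17.0% of all genes with such a p. Of these 8 were higher in KO, against 9.38% of all genes, and 3 lower, against 7.60%. The nearest to the threshold was Cxcl11, at an adjusted p of 0.0596. It was the only member with an adjusted p under 0.1, which 4.20% of all genes had. The median log2 difference, KO minus FF, was 0.024 over the members and -0.020 over all genes. It spanned -0.69 for Cxcl9 to 2.06 for Cxcl14. By mean, 29 members were higher in KO and 24 lower, and 19 differed from 0 by less than their own standard error, so that no direction is given for those.

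The arrays separated without overlap for 30 of the 53 members, while 46.6% of all genes did so. Both KO arrays lay above both FF arrays for 17 members, or 32.1%, against 21.6% of all genes. Both lay below for 13 members, or 24.5%, against 25.0% of all genes. A mean at least 2-fold higher in KO was seen for 3 members, Cxcl14, Ccl3 and Ccl2, and in 1.15% of all genes. No member had a mean 2-fold lower, as 0.809% of all genes did. For 45 of the 53 members the 95% interval of the difference lay within a 2-fold change in either direction. The same held for 27228 of the 29432 genes. The 45 include all 23 members at or below the background guide described next. Folds of such dim probe sets are compressed, so for those the interval does not exclude a 2-fold change in RNA. The interval reached 2-fold for 8 members, all of them above the guide.

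Signal over background sets what can be read. The background guide was 2.82, the level below which 95% of the means of 1127 olfactory receptor genes lay, since liver is not known to express them. The mean over 4 arrays was above the guide for 30 members and at or below it for 23. Of the ligands 23 of 34 lay above it, but only 7 of the 19 receptors did. In 17 members no array passed the guide, and a difference there may be hidden by background. Signals of different probe sets are not compared here as amounts of RNA, because probes differ in how well they bind.

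**Figure D1:**
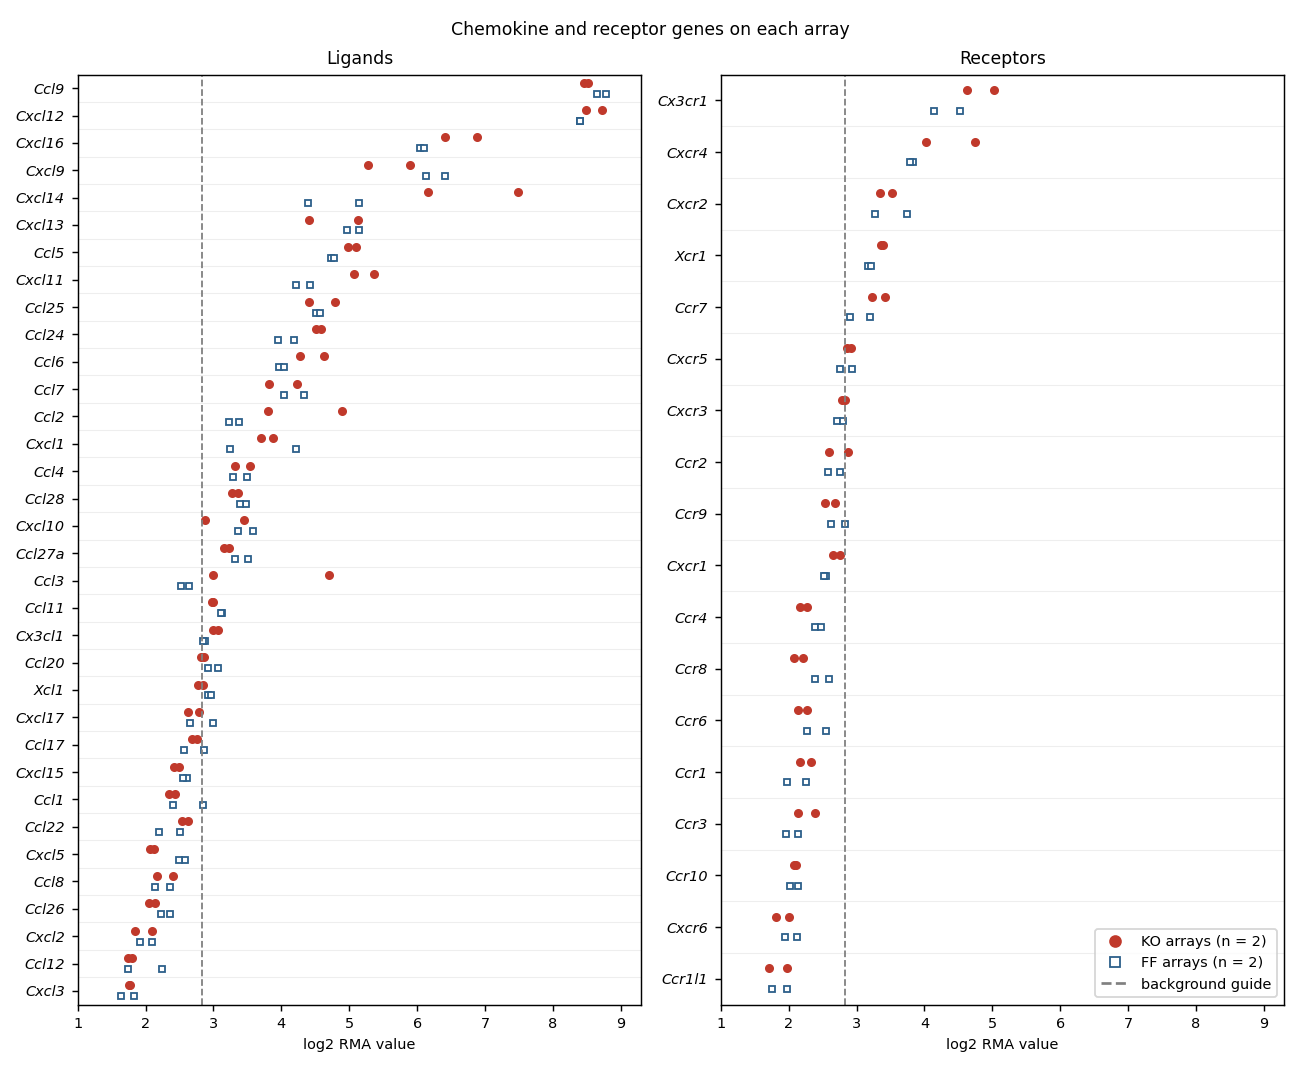
Deposited log2 values of 34 ligand genes and 18 receptor genes on each array, ordered by mean. Filled circles are the 2 KO arrays, open squares the 2 FF arrays, and the dashed line is the background guide of 2.82. Of the receptors plotted 12 have means at or under the guide, and the KO circles of Cxcl14, Ccl2 and Ccl3 lie apart from each other.

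Cxcl14 had the largest difference among the members. It encodes an epithelial chemokine expressed in several healthy tissues, and the gene lies on chromosome 13 from 56288643 to 56296811 (GRCm38.p6). Its values were 7.49 and 6.16 on the KO arrays and 4.39 and 5.14 on the FF arrays. Both KO values lay above both FF values, but arrays of the same group also differed widely. The difference was 2.06 ± 0.46 (SE), or 4.16-fold, with a 95% interval from 0.92 to 3.20 and an adjusted p of 0.105. It was 2.72 without KO replicate 2 and 1.39 without KO replicate 1, so the size rests on which KO animal is taken.

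None of the interferon-inducible ligands of CXCR3, which attract activated T cells and NK cells, passed the test. Cxcl11 lay at 5.07 and 5.37 on the KO arrays, against 4.42 and 4.21 on the FF arrays. Its difference was 0.90 ± 0.16 (SE), with a 95% interval from 0.52 to 1.28. The RefSeq table, which is of C57BL/6J, lists Cxcl11 as a transcribed pseudogene on chromosome 5 from 92359544 to 92363296. Cxcl9, its neighbour on the same chromosome, lay at 5.89 and 5.28 on the KO arrays and at 6.13 and 6.42 on the FF arrays. Both KO values of Cxcl9 were lower, with a difference of -0.69 ± 0.23 (SE) and an adjusted p of 0.211. It was -0.99 without KO replicate 1 and -0.38 without KO replicate 2, and -0.23 in the authors' deposited table. Cxcl10, which stands between them, had 3.44 and 2.88 on the KO arrays and 3.37 and 3.58 on the FF arrays. These overlap, with a difference of -0.31 ± 0.21 (SE). The adjusted p of Cxcl11 ran from 0.0349 with median centring to 0.377 without FF replicate 1. It passed 0.05 in 4 of the alternatives, which are listed in the closing section. Cxcr3, their shared receptor, was at the guide, with 2.83 and 2.79 on the KO arrays and 2.71 and 2.80 on the FF arrays.

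Promoter windows are shown for Cxcl14, the gene with the largest difference, and for Cxcl9, the interferon-induced ligand that was lower in KO by both arrays. Each is the 250 bases before the start that the RefSeq promoter table uses (GRCm38.p6), written 5′ to 3′ along the gene, which for both is the minus strand. For Cxcl9 that start is the outer end of the gene's span, whereas for Cxcl14 it lies 260 bases inside the span, so the Cxcl14 window falls within the annotated gene. Windows were found for 38 of the 53 members. Capitals mark matches to TATAAA, the letters of the TATA box, searched on both strands.
Cxcl14, chr13:56296552-56296801: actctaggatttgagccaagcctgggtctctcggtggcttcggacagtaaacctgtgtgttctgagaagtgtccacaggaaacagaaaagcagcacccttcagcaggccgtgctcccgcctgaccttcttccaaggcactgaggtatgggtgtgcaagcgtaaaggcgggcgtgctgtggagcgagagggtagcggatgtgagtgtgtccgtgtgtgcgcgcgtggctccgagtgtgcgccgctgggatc
Cxcl9, chr5:92328080-92328329: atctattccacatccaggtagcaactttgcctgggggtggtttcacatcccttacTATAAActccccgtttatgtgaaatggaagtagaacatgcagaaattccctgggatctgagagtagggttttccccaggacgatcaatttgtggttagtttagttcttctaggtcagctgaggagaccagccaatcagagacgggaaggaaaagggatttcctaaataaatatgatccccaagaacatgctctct
The Cxcl9 window held the TATAAA letters 195 bases before the start, and the Cxcl14 window did not hold them. Among all 32851 windows 12.4% hold these letters. Of the 38 member genes, which have 42 windows, 12 held them in at least 1 window, Cxcl9, Cxcl13, Cxcr4 and Cx3cl1 among them. That count is by gene and the 12.4% by window, so the shares are not compared. A match describes letters in a short window and not a bound site.

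Cxcl16 and Cxcl12, ligands for the resident lymphocyte receptor CXCR6 and for CXCR4, were well above background. Cxcl16, which is made as a membrane protein and shed, lay at 6.88 and 6.42 on the KO arrays, against 6.03 and 6.10 on the FF arrays. That is a difference of 0.58 ± 0.18 (SE) at an adjusted p of 0.185, with the KO values both higher. Its receptor gene Cxcr6 lay under the guide on all arrays, at 2.01 and 1.81 in KO and 1.94 and 2.12 in FF. Cxcl12 lay at 8.72 and 8.49 on the KO arrays and at 8.40 and 8.39 on the FF arrays. Its difference was 0.21 ± 0.13 (SE), and the 95% interval, from -0.11 to 0.53, excluded a 2-fold change. Cxcl13, which attracts B cells, lay at 5.12 and 4.41 on the KO arrays and at 5.14 and 4.96 on the FF arrays, so the groups overlap. Its receptor gene Cxcr5 was near the guide, at 2.87 and 2.91 in KO and 2.75 and 2.93 in FF.

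Ligands of CXCR2, which call neutrophils, showed little signal and no consistent difference. Cxcl1 lay at 3.88 and 3.70 on the KO arrays and at 4.21 and 3.24 on the FF arrays, where the FF pair spans the KO pair. Cxcl5 lay at 2.07 and 2.12 in KO and at 2.59 and 2.49 in FF, all under the guide, with a difference of -0.44 ± 0.12 (SE) and an adjusted p of 0.139. Cxcl2 had 2.09 and 1.85 in KO and 2.10 and 1.92 in FF, and Cxcl3 lay between 1.64 and 1.83 on all arrays. The receptor gene Cxcr2 lay at 3.52 and 3.35 in KO and 3.74 and 3.28 in FF, while Cxcr1, the other receptor of neutrophils, stayed under the guide. Cxcl15 and Cxcl17, ligands best known from lung and mucosa, had differences of -0.13 and -0.11 with means under the guide.

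Among the CC ligands, Ccl3 and Ccl2 stood apart on one KO array. Ccl3, a ligand of CCR1 made by activated macrophages, lay at 2.99 and 4.70 on the KO arrays, against 2.64 and 2.52 on the FF arrays. KO replicate 2 was the only array clearly above the guide. The difference was 1.27 ± 0.52 (SE) at an adjusted p of 0.297, and it was 0.41 without KO replicate 2 and 2.12 without KO replicate 1. Ccl2, the main attractant of CCR2-bearing monocytes, lay at 3.80 and 4.89 on the KO arrays and at 3.23 and 3.38 on the FF arrays. Its difference of 1.04 ± 0.34 (SE), at an adjusted p of 0.207, was 0.49 without KO replicate 2 and 1.59 without KO replicate 1. For both genes KO replicate 2 was the higher KO array, whereas for Cxcl14 it was KO replicate 1.

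Genes encoded near Ccl3 and Ccl2 had smaller differences by mean. Ccl4, which activated macrophages and lymphocytes make and whose gene lies beside Ccl3, lay at 3.31 and 3.55 on the KO arrays and at 3.49 and 3.29 on the FF arrays, with a difference of 0.034 ± 0.14 (SE). In the RefSeq table the spans of Ccl3 and Ccl4 overlap by 755 bases. Ccl5, made by T cells and NK cells among others, lay at 5.10 and 4.98 in KO and at 4.73 and 4.78 in FF. Its difference was 0.29 ± 0.12 (SE), with an adjusted p of 0.299 and no overlap. Ccl7 and Ccl12, further CCR2 ligands, had differences of -0.16 ± 0.18 and -0.22 ± 0.19 (SE). The Ccl7 arrays overlapped, at 3.82 and 4.23 in KO and 4.33 and 4.05 in FF, and all Ccl12 values were under the guide. The gene of CCR2 itself lay at 2.87 and 2.60 in KO and 2.76 and 2.58 in FF, with a mean under the guide, so a difference there may be hidden by background.

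The mouse CCR1 ligands Ccl9 and Ccl6 did not pass the test either. Ccl9 lay at 8.46 and 8.51 on the KO arrays, against 8.78 and 8.64 on the FF arrays, a difference of -0.22 ± 0.12 (SE). Ccl6 lay at 4.63 and 4.27 on the KO arrays, against 3.96 and 4.04 on the FF arrays, a difference of 0.45 ± 0.16 (SE) with an adjusted p of 0.230. Neither pair of groups overlapped. Ccr1 and its relative Ccr1l1 were under the guide on all arrays.

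None of the eotaxin genes, whose products attract eosinophils through CCR3, passed the test. Ccl24 lay at 4.59 and 4.52 on the KO arrays and at 3.94 and 4.18 on the FF arrays. The difference was 0.49 ± 0.13 (SE) with a 95% interval from 0.16 to 0.82 and an adjusted p of 0.150. Ccl11 lay at 2.98 and 2.99 in KO and at 3.13 and 3.11 in FF, and Ccl26 stayed under the guide. Ccr3 was under the guide on all arrays, between 1.96 and 2.38.

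The remaining CC ligands had differences between -0.23 and 0.23. Ccl25, the ligand of CCR9 known from thymus and gut, lay at 4.41 and 4.78 in KO and at 4.52 and 4.57 in FF. Ccl27a and Ccl28, ligands of CCR10 in skin and mucosa, had differences of -0.22 ± 0.13 and -0.11 ± 0.12 (SE), with both KO arrays under both FF arrays. Ccl20, the ligand of CCR6, lay at 2.87 and 2.82 in KO and at 3.07 and 2.92 in FF. Ccl17 and Ccl22, ligands of CCR4, and Ccl1 and Ccl8, mouse ligands of CCR8, had means under the guide. The receptor genes Ccr4, Ccr6, Ccr8, Ccr9 and Ccr10 did too. Ccr8 was the only one of them past an unadjusted p of 0.05, at 2.09 and 2.21 in KO and 2.59 and 2.39 in FF, where background dominates.

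Cx3cr1 and Cxcr4 were above background in both groups. Cx3cr1, found on monocytes and on some liver macrophages, lay at 5.03 and 4.63 on the KO arrays and at 4.52 and 4.14 on the FF arrays. That gave a difference of 0.49 ± 0.20 (SE) and an adjusted p of 0.289. Its ligand gene Cx3cl1 lay at 2.996 and 3.065 in KO and at 2.882 and 2.847 in FF. Cxcr4, the receptor of CXCL12 on most leukocytes, lay at 4.74 and 4.02 on the KO arrays and at 3.83 and 3.79 on the FF arrays. Its difference was 0.57 ± 0.24 (SE), with an adjusted p of 0.311, and it was 0.21 without KO replicate 1 and 0.94 without KO replicate 2. Ccr7, which brings dendritic cells and T cells to lymph nodes, lay at 3.41 and 3.23 in KO and at 3.19 and 2.90 in FF. Xcr1, the receptor of cross-presenting dendritic cells, lay at 3.35 and 3.39 in KO and at 3.17 and 3.21 in FF, and its ligand gene Xcl1 at 2.77 and 2.84 in KO and at 2.91 and 2.97 in FF.

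**Figure D2:**
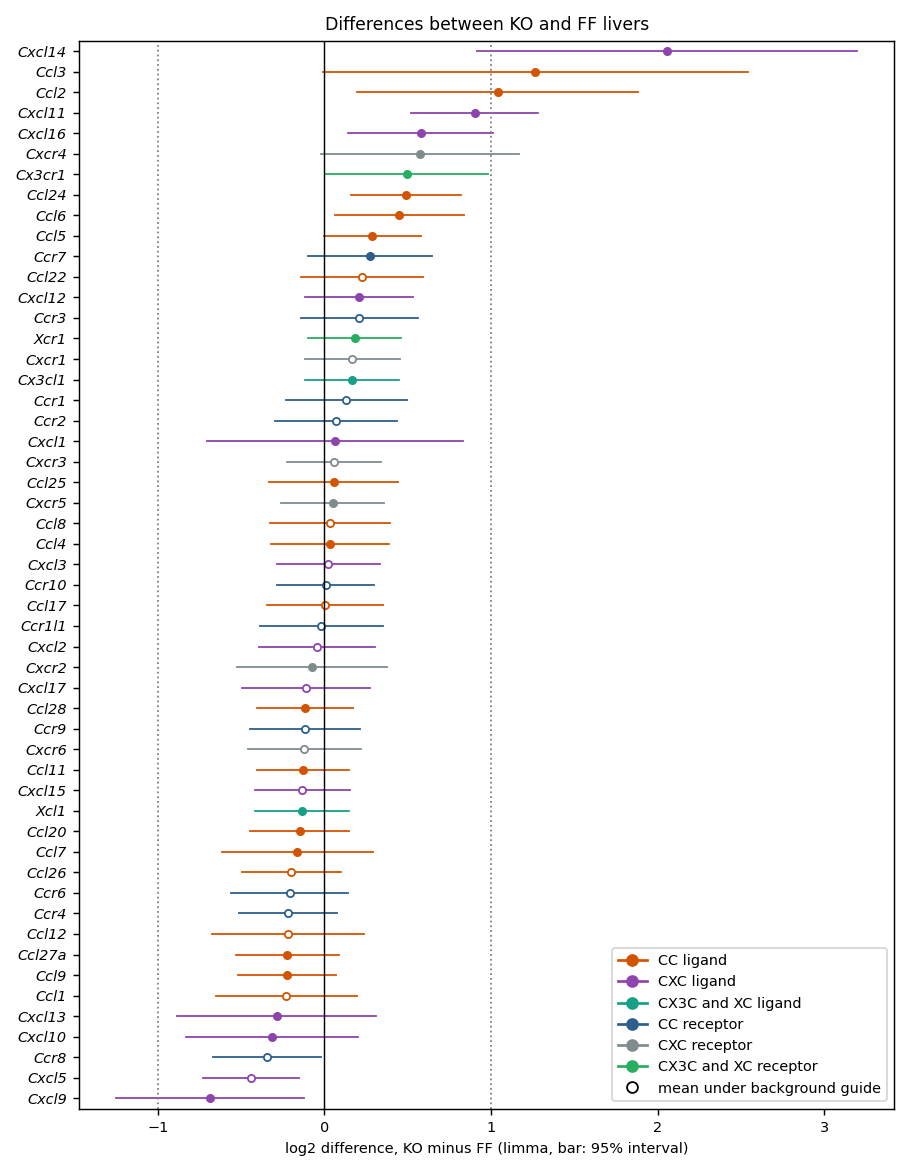
Log2 difference between KO and FF for 52 of the 53 members, ordered by size. Points are limma estimates from 2 arrays per group, bars are 95% intervals, open points have means at or under the background guide, and dotted lines mark a 2-fold change. Cxcl14, Ccl3 and Ccl2 are past 2-fold by mean, and their bars are the widest among the members.

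Many members are neighbours in the genome. Of the 53, 36 lie in 9 neighbourhoods, in each of which the start of a member is within 1 Mb of the next. On chromosome 11, Ccl2 was higher in KO by 1.04 while Ccl7, Ccl11, Ccl12, Ccl8 and Ccl1, within 144 kb, had differences from -0.23 to 0.036. A second group on the same chromosome holds Ccl5, Ccl9, Ccl6, Ccl3 and Ccl4, where 3 had both KO arrays above both FF arrays and 1, Ccl9, had them below. On chromosome 5 the neutrophil ligands Cxcl5, Cxcl3, Cxcl15, Cxcl1 and Cxcl2 had differences from -0.44 to 0.064. Counting members whose difference exceeded its standard error, 5 of the 9 neighbourhoods held both signs. On chromosome 8 Ccl22, Cx3cl1 and Ccl17 lay at 0.23, 0.17 and 0.0051.

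**Figure D3:**
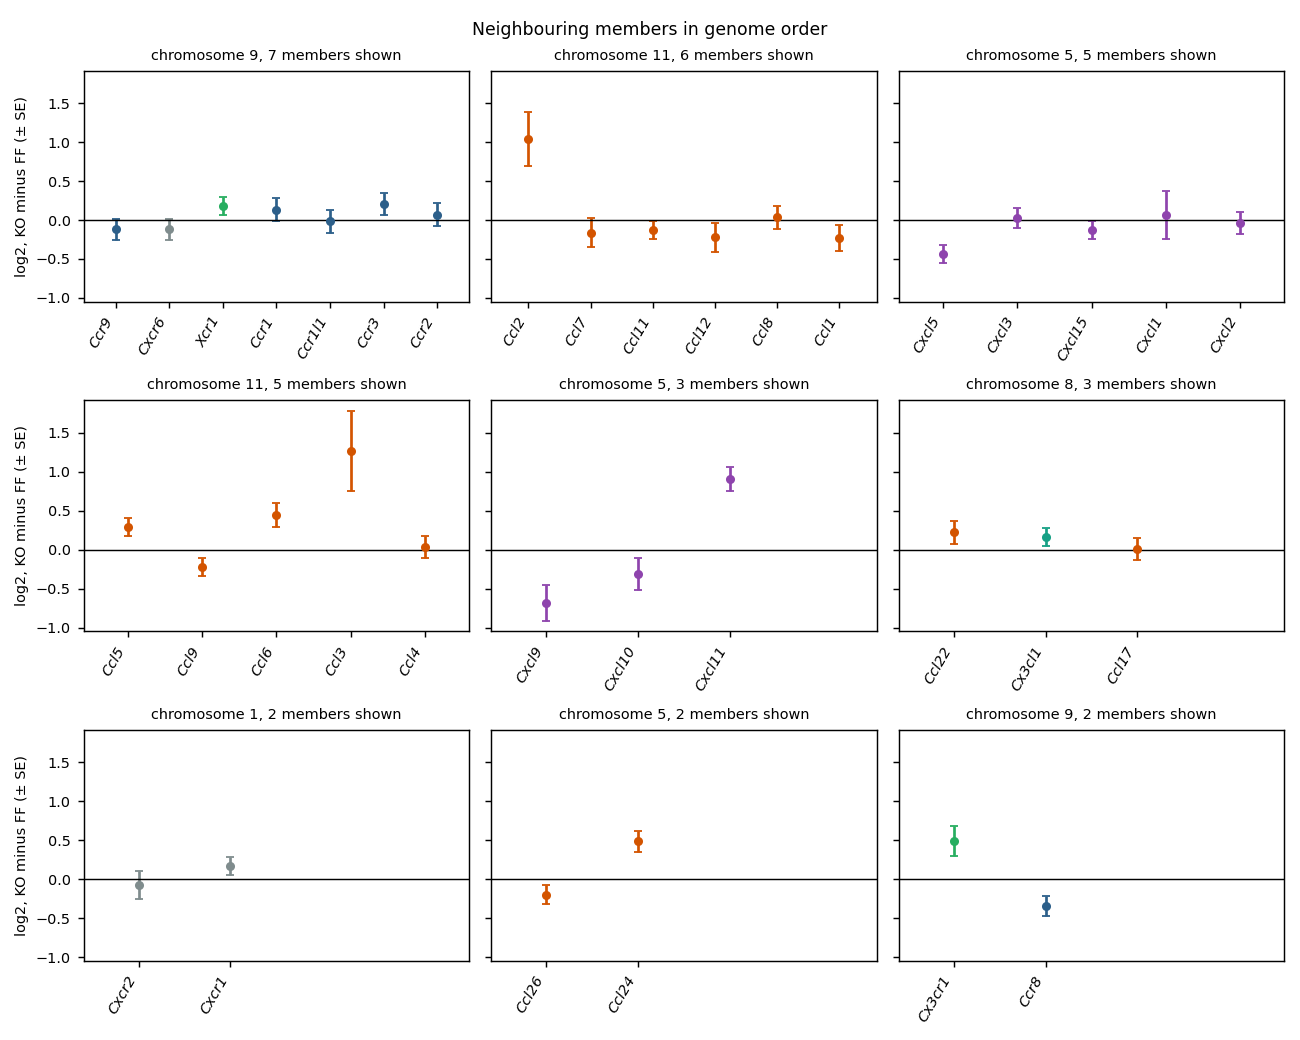
Log2 difference between KO and FF for 35 of the 36 members that have a neighbouring member, in genome order within each of 9 neighbourhoods. Points are limma estimates and bars their standard errors. Cxcl11, Ccl2 and Ccl3 stand above the genes beside them.

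Ligand genes of near-identical sequence were measured by 22 probe sets that name several genes, so they were left out of the count above. In a fit over all 41345 probe sets, chosen after the data were seen, 42 probe sets, or 0.102%, were called and none of these 22. Of the 22, 14 had an unadjusted p under 0.05, against 14.4% of all probe sets, but many repeat each other. The 22 hold 15 distinct sets of values and the 14 hold 10. The 4 probe sets naming Ccl27b, a copy of the skin chemokine gene Ccl27a, lay from 3.59 to 3.75 on the KO arrays and from 4.31 to 4.89 on the FF arrays. Their differences ran from -1.29 to -0.82, with limma adjusted p from 0.0659 to 0.131, and no KO array reached an FF array. The probe set of Ccl27a alone had a difference of -0.22.

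The 9 probe sets naming Ccl21 copies, whose products guide CCR7-bearing cells along lymphatic vessels, lay higher on both KO arrays in every case. Their differences ran from 0.36 to 0.63, with limma adjusted p from 0.221 to 0.334. They hold 5 distinct sets of values, so they are not 9 separate measurements. The probe set that names Ccl19, another CCR7 ligand, together with Gm2023 lay at 5.13 and 4.38 on the KO arrays and at 4.03 and 3.87 on the FF arrays. Its difference was 0.80 ± 0.27 (SE), at an adjusted p of 0.311. The other 5 that name Ccl19 had differences from -0.073 to 0.37, with overlapping groups.

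Of 75 measured entries around the chemokine system, in 5 lists and with Jak2 counted in each of its lists, 3 rose and 0 fell. That is 4% of them called, against 1.77% of all genes, and 0.996% of all genes were called higher. Most of the entries lay above the guide. Of the 15260 genes above it 514 were called, 291 of them higher, so the share of all genes is a low comparison. Icam1, the adhesion molecule that halts leukocytes on endothelium, rose by 1.27 ± 0.16 (SE), to 5.45 and 5.40 on the KO arrays, against 4.34 and 3.96 on the FF arrays (limma adjusted p = 0.0288). Mmp2, a metalloprotease that trims several chemokines, rose by 1.73 ± 0.25 (SE), to 6.09 and 5.40 in KO, against 3.86 and 4.17 in FF (limma adjusted p = 0.0373). Ptk2b, a kinase activated by chemokine receptors, rose by 0.78 ± 0.12 (SE), to 7.40 and 7.29 in KO, against 6.52 and 6.61 in FF (limma adjusted p = 0.0451).

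The list of inducers and the NF-kB circuit had 24 genes, of which 1 rose, Icam1, with a median difference of 0.17. Vcam1, a second adhesion molecule, did not pass, at 1.12 ± 0.18 (SE) and an adjusted p of 0.0523. Il1b, a cytokine that induces chemokines, lay at 4.38 and 5.25 on the KO arrays, against 4.10 and 3.47 on the FF arrays, with KO replicate 2 the highest as for Ccl2 and Ccl3. Il6, Ifng, Il17a and Lta had means under the guide. In the list of signal transduction below the receptors 1 of 20 genes rose, Ptk2b, and 17 were higher by mean, with a median of 0.33. Among 12 genes that trim or retain ligands 1 rose, Mmp2, with a median of 0.27. The heparan sulfate carrier Sdc4, which binds chemokines, lay at 9.15 and 9.11 in KO and at 9.70 and 9.78 in FF, with an adjusted p of 0.0730.

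None of the 10 genes of the interferon gamma circuit passed limma (3 at an unadjusted p under 0.05), with a median of 0.22. Of 9 measured ligands and atypical receptors outside the naming pattern none passed (2 at an unadjusted p under 0.05), with a median of 0.16. Rarres2, the gene of the liver-made attractant chemerin, was at 10.01 and 9.88 in KO and at 9.54 and 9.48 in FF. All 5 medians lie above the -0.020 of all genes.

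Markers of the cells that carry receptors differed by cell type. Beside the counts that follow, both KO arrays lay above both FF arrays in 21.6% of all genes, and 17.0% had an unadjusted p under 0.05. Among the 15260 genes above the guide these shares were 31.5% and 27.1%, a nearer comparison for lists that lie above it. All 8 general leukocyte markers had higher means in KO, 7 with both KO arrays above both FF arrays, and 0 passed limma (7 at an unadjusted p under 0.05). Their summed linear signal was 626 and 456 on the KO arrays and 377 and 371 on the FF arrays. For 10 markers of Kupffer cells and macrophages, 9 of which did not overlap, the sum was 1761 and 1176 in KO and 869.7 and 911 in FF. For 8 dendritic cell markers it was 470 and 297 in KO and 176 and 197 in FF, mostly from H2-Ab1 and H2-Aa. Without H2-Ab1, the most intense, it was 169 and 125 in KO and 85.3 and 86.7 in FF. Much of that remainder is H2-Aa, at log2 values of 6.77 and 6.08 in KO and 5.22 and 5.37 in FF. Itgax, Cd209a and Batf3 had means under the guide, and Batf3 had overlapping groups with a difference of -0.054. In these lists KO replicate 2 was nearer to the FF arrays. KO replicate 1 had the larger sum in 12 of all 14 cell type lists. It had the larger value in 27 of the 53 members, near the 14791 of all 29432 genes. Cxcr4, Cx3cr1, Cxcl14 and Cxcl16 are among the 27, while Ccl2, Ccl3 and Cxcl11 were larger on KO replicate 2. The part of leukocyte RNA in the receptor and ligand differences was not tested.

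Lymphoid and neutrophil markers were at or near background. Of 9 T cell markers 6 had means under the guide, Cd3e, Cd3d and Cd3g among them, and their sum was 61.2 and 61.0 in KO and 64.4 and 64.2 in FF. For NK cells 6 of 8 and for neutrophils 9 of 10 markers were under the guide. The NK cell sum was 65.8 and 61.7 in KO and 61.9 and 55.7 in FF, and that of neutrophils was 70.6 and 56.2 in KO and 60.5 and 51.6 in FF. B cell markers summed to 54.7 and 37.3 in KO and 49.9 and 43.9 in FF, with 2 of 6 under the guide. The 6 markers of mast cells and eosinophils were under the guide apart from Kit. Platelet markers, 3 in number, were lower in KO by mean.

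Markers of other liver cells that make ligands passed the test in 2 of the lists. Of 10 stellate cell markers 4 rose, Col3a1, Col1a1, Rgs5 and Reln, while 0.996% of all genes were called higher. All 10 lay above the guide, where 291 of 15260 genes were called higher. Acta2, on the same list, had a difference of 0.028 with overlapping groups. The stellate cell sum was 2995 and 2533 in KO and 1584 and 1433 in FF. Without Dcn, the most intense, it was 1254 and 1058 in KO and 596.2 and 596.5 in FF. Of 7 cholangiocyte markers 1 rose, Cd24a, with sums of 615 and 449.5 in KO and 164 and 256 in FF. No marker of the 9 for sinusoidal endothelium passed limma (3 at an unadjusted p under 0.05), with sums of 1717 and 1604 in KO and 1519 and 1392 in FF. The sum of the 7 monocyte markers, of which 0 passed limma (2 at an unadjusted p under 0.05), is nearly all Fn1, which hepatocytes also express. Without Fn1 it was 76.8 and 65.0 in KO and 49.9 and 50.2 in FF. Plac8, Ly6c2 and Cd14 had differences of 0.89, 0.54 and 0.44 with both KO arrays higher. Chil3, Vcan and F13a1 had means under the guide and overlapping groups, with differences of 0.029, 0.042 and -0.12. The median of the monocyte list was 0.042. None of 8 hepatocyte markers passed limma (2 at an unadjusted p under 0.05, both lower in KO), and all 8 were above the guide. By mean 6 were lower in KO and 2 higher. Their sum was 32121 and 32359 in KO and 34367 and 34149 in FF. The most intense, Alb, averaged 12.74 in KO and 12.82 in FF. The part of stellate cell and cholangiocyte RNA in the ligand differences was not tested.

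**Figure D4:**
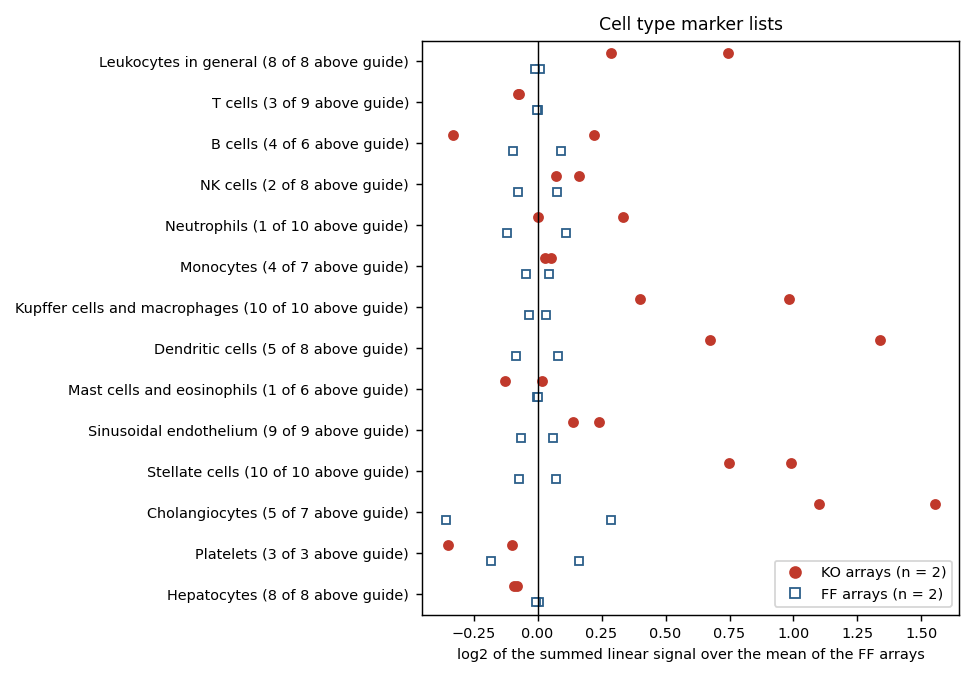
Summed linear signal of 14 cell type marker lists on each array, as log2 over the mean of the 2 FF arrays. Filled circles are KO arrays and open squares FF arrays. Macrophage, dendritic, stellate and cholangiocyte lists are higher on both KO arrays. The dendritic list is mostly H2-Ab1 and H2-Aa, and the monocyte list is mostly Fn1. The T cell list lies at -0.072 and -0.075 on the KO arrays.

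The authors' deposited table gives log2 averages of its own for the same probe sets. Of the 53 members, 38 had the sign found here in the authors' deposited table, as did 28 of the 34 whose difference exceeded its standard error. There Cxcl14 averaged 6.58 in KO and 5.07 in FF, a signed fold change of 2.86. Ccl3 averaged 4.93 in KO and 3.20 in FF there, and Cxcl11 averaged 5.83 in KO and 4.73 in FF, all from the authors' deposited table. Ccl2 averaged 5.32 in KO and 4.83 in FF in the authors' deposited table, a difference of 0.49 where 1.04 was found here. The 7 members more than 0.5 apart on the log2 scale were Ccl2, Ccl7, Ccl26, Ccl28, Cxcl1, Cxcl3 and Cxcl14. The widest gap was in the neutrophil ligand Cxcl1, at 4.62 in KO and 5.91 in FF in the authors' deposited table, which is -2.44 as a signed fold change, where the difference found here was 0.064 ± 0.31 (SE). Cxcl3 stood at -2.11 as a signed fold change in the authors' deposited table and had a difference of 0.024 here.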

How the data were processed

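Liver RNA of 2 KO and 2 FF mice was measured on 4 arrays, grouped by the sample titles. Per the submitters' processing notes, the authors used RMA and Affymetrix Expression Console, without versions, to make the deposited log2 values. RMA equalises the arrays' distributions, so a change in total RNA cannot be seen, and it compresses folds of dim probe sets. The authors' deposited table gives, per the file headers, log2 averages and a signed linear fold change, listed among the units as a score; it supplied gene symbols. The sources used here do not say how they were made.

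Only probe sets with 1 symbol were tested, and the brightest over all arrays stood for each of 29432 genes; 26 probe sets with a date for a symbol were left out. KO was compared with FF in limma 3.58.1 (R 4.3.3; lmFit and eBayes, no block, no filter), with 2 residual and 3.79 prior degrees of freedom and Benjamini-Hochberg adjustment over all genes. Limma gave every p-value in the text. It was tested on data simulated from its own fitted variance model, which cannot show how far that model holds for these arrays.

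The members and lists were chosen with earlier results of these data known. Given with array values are called members, the 12 largest differences above the guide, the 10 brightest and fixed ligand-receptor sets. In the other lists they are called genes and some near the threshold or of interest, chosen after their values were seen. Positions are from the RefSeq gene table (GRCm38.p6, the mm10 assembly), where all 53 members were found. Alternatives covered the variance model, scaling, filters, probe sets, each array and the authors' table. The values of 1 member, which the counts include, and of 1 listed gene are not reported here. The labels give no batch or scan date, so batches could not be checked. The labels call samples biological replicates.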

Additional observations from a re-analysis of the deposited data

How the results depend on the processing

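The count of 0 members called held with an intensity trend, cyclic loess, averaged probe sets, the replicate block, all probe sets tested and without any single array. It became 1, Cxcl11, with robust moderation, median centring, without the 50% dimmest genes, without genes under the guide or at an adjusted p under 0.1, and 11 at an unadjusted p under 0.05. The adjusted p of Cxcl11 was 0.0395, 0.0349, 0.0399 and 0.0423 under the first 4 of these. Among all genes tested 522 were called, against 30 with the replicate block, 975 with robust moderation, 850 without the dimmest genes, 785 without genes under the guide, 42 with all probe sets, 1235 at an adjusted p under 0.1 and 4998 at an unadjusted p under 0.05. Without any single array 0 genes were called, since 1 array then stands for a group and is assumed to vary like the other group, and 3364 to 3958 genes had an unadjusted p under 0.05. The member median of 0.024 became 0.17 without the dimmest genes and 0.12 without genes under the guide, where 28 and 30 members were left, and 0.16 in the authors' deposited table. Without single arrays it ran from -0.021 to 0.066. Median centring moved the median of all genes to 0.0027 and cyclic loess to 0.0034, from -0.020.

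Of the 34 members whose difference exceeded its standard error, 6 had another sign or 0 in the authors' deposited table, namely Ccl1 at 0.07, Ccl26 at 0.37, Cxcl12 at -0.01, Cxcl13 at 0.16, Cxcl15 at 0 and Cxcr1 at -0.24; the cause was not tested. With single arrays left out, Cxcl13 ran from -0.64 to 0.069 and Ccl12 from -0.47 to 0.031. No other of the 34 turned sign under the alternatives run here. Same-numbered KO and FF arrays did not deviate together (r = -0.0064 across genes, which are not independent), so the replicate block pairs arrays by number alone. Dim probe sets limit the receptors most, with 12 of 19 at or under the guide.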

Other observations

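Over the 53 members, the KO arrays lay further apart than the FF arrays in 28, against 49.9% of all genes. KO replicate 1 was above KO replicate 2 in 27 of the 53 members and in 14791 of all 29432 genes. Among members and cytokines chosen here by their values, Il1b, Ccl2 and Ccl3 were highest on KO replicate 2. Cxcl14, Cxcl16, Cxcr4 and Cx3cr1 were highest on KO replicate 1. Cxcl13, Cxcl9 and Cxcl10 also had their higher KO value on replicate 1. The FF arrays of Cx3cr1 lay apart too, at 4.52 and 4.14. Cxcl11, Ccl24 and Ccl5 were higher by similar amounts on both KO arrays. KO replicate 1 had the larger summed signal in 12 of 14 cell type lists, those of stellate cells, cholangiocytes and endothelium as well as leukocytes. With 2 KO animals no relation between these values was tested.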
